A study of Mus musculus with 4 samples.

Results

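The mitochondrial carrier genes (the SLC25 family, including the uncoupling proteins) were examined in ATAC-seq libraries of mouse heart taken at postnatal day 14, with 2 wild-type and 2 Carm1 mutant samples. Members were the protein-coding RefSeq genes whose symbol starts with Slc25a, 47 genes, together with Ucp1, Ucp2 and Ucp3. A peak was linked to a member when it overlapped the gene or lay within 10 kb of either gene end. Of the 50 members, 46 had at least 1 linked peak, and 217 of the 87948 peaks in the deposited table were linked, 3 of them to more than 1 member. ATAC-seq reads out accessible chromatin through the places where a transposase can insert sequencing adapters. Carm1 encodes an arginine methyltransferase that acts on histones and other proteins as a transcriptional coactivator. The labels give the mutant group only as Carm1 mutant, with no allele, Cre driver, strain or sex, and the wild-type group with no further description. They name the tissue as heart and do not say whether a sample was 1 animal or a pool, so p-values measure only the spread between these samples.

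Mitochondrial carriers sit in the inner mitochondrial membrane and exchange metabolites, nucleotides, phosphate, cofactors and ions between the cytosol and the matrix. The heart depends on them for the export of ATP, the import of fatty acids as acylcarnitines and the shuttling of reducing equivalents, and cardiac mitochondria expand while the heart matures after birth. Uncoupling proteins belong to the same family. Ucp1 carries the proton leak of brown fat, Ucp3 is mainly a muscle and heart gene, and Ucp2 is expressed in many tissues, including immune cells.

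Sequences are shown for the 250 bases before the annotated start of 4 genes, because Ucp3 has the one called peak at a gene start, Ucp2 is its neighbour, and Slc25a4 and Slc25a42 have called peaks elsewhere at the locus. They come from RefSeq (build GRCm38.p6, the assembly of mm10) and lie at chr7:100472741-100472990 on the plus strand for Ucp3, chr7:100493108-100493357 on the plus strand for Ucp2, chr8:46211063-46211312 on the minus strand for Slc25a4 and chr8:70212282-70212531 on the minus strand for Slc25a42. Each is written 5′ to 3′ toward the start. Capitals mark matches on either strand to AGGTCA (the core motif of nuclear receptors), CCAAT (the CCAAT box), GGGCGG (the GC box) or TATAA (the TATA box).
Ucp3: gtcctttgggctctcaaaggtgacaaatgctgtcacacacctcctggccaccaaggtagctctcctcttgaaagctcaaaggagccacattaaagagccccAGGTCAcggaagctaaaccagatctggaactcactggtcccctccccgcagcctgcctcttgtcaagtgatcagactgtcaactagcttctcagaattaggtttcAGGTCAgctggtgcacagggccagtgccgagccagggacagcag
Ucp2: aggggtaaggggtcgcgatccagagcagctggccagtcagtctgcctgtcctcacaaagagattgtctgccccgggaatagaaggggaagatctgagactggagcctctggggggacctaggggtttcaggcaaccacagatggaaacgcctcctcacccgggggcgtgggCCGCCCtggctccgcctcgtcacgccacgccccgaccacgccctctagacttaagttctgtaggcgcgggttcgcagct
Slc25a4: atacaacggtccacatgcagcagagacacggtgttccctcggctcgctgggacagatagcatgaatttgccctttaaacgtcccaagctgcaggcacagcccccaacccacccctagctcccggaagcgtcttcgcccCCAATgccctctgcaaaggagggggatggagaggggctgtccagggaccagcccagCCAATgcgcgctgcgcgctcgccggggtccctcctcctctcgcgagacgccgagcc
Slc25a42: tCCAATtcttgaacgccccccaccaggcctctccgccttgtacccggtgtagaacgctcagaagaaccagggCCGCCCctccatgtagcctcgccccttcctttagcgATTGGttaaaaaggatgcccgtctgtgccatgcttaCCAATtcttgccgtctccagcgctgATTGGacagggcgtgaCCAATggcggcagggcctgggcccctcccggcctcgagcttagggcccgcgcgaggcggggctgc

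All 4 windows lay within a peak. The Ucp3 window held 2 matches to AGGTCA, beginning 149 and 44 bases before the start, and none to the other motifs. Its neighbour Ucp2 held 1 GC box and no AGGTCA. Slc25a42 held 5 CCAAT boxes and 1 GC box, and Slc25a4 held 2 CCAAT boxes. The promoter table had a start for 39 members, with 49 windows in all. GC boxes were present in 67.3% of these windows, against 42.6% of all 21263 windows of the same length, and TATA boxes in 6.12% against 20.3%. CCAAT boxes were in 42.9% against 35.4%, and AGGTCA in 12.2% against 12.8%. The longer CAAGGTCA, a form bound by estrogen-related receptors that contains AGGTCA, was in 0 of the 49 windows and in 1.14% of all windows. These are matches of letters, and no binding was measured.

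Few carrier peaks passed the test for a difference between the genotypes. Of the 217 linked peaks, 3 rose and 3 fell in the mutant heart (edgeR, quasi-likelihood, threshold of 0.05 on p-values adjusted by Benjamini-Hochberg), and 211 did not pass. With 2 libraries per genotype, a peak that did not pass is not shown to be equal in both. With libraries scaled by total counts, 2 rose and 4 fell. The called share was 2.76% of linked peaks, against 5.5% of all peaks (3.05% higher and 2.45% lower) and 4.82% of the 67994 peaks linked to any protein-coding gene by the same rule. The higher peaks lay at Ucp3, Slc25a4 and Slc25a42, and the lower peaks at Slc25a13, which had 2, and at Slc25a32. The median log2 fold change of the linked peaks was 0.04, beside 0.00 over all peaks, and the values ran from -1.99 to 1.06. Both mutant libraries lay above both wild-type libraries in 56 linked peaks, or 25.8%, which is also the share over all peaks at 25.8%. They lay below both in 45, or 20.7%, against 25.7% of all peaks. At an unadjusted p of 0.05, 25 of the 217 linked peaks were higher and 19 lower, where 11.4% and 10.4% of all peaks were, so the counts lie near the background. The nearest protein-coding gene end belonged to a gene that is not a member for 67 of the 217 linked peaks, and for none of the 6 called ones.

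**Figure D1:**
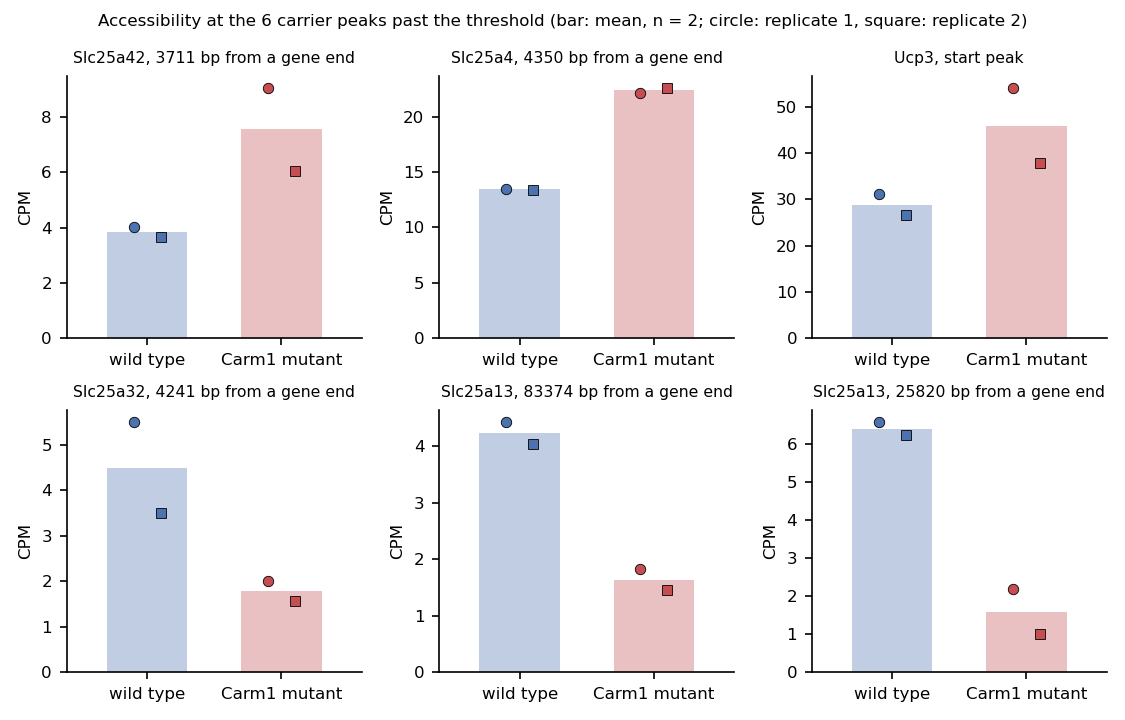
Accessibility in CPM (counts scaled to library size, vertical axes from 0) of the 6 carrier peaks past the threshold, with 1 point per library and bars at the mean of 2 libraries for each genotype. The 2 mutant libraries lie on 1 side of both wild-type libraries in every panel. They stand well apart from each other at Ucp3 and Slc25a42 and, relative to their size, at 1 Slc25a13 peak (2.19 and 1.01 CPM).

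Ucp3 had the only called peak at a gene start. This peak spans the start (chromosome 7, 100472571 to 100474490, mm10) and does not lie within 1 kb of another gene end. CPM, counts scaled by the library size, were 31.2 and 26.5 in wild-type replicates 1 and 2 and 54.1 and 37.9 in mutant replicates 1 and 2. The groups did not overlap, and mutant replicate 1 stood highest. The mean rose from 28.9 ± 3.33 to 46 ± 11.5 CPM (SD, n = 2 per genotype), with a log2 fold change of 0.67 (SE 0.17, adjusted p = 0.0268, edgeR). Without mutant replicate 1 the log2 fold change was 0.39 and the call was lost (adjusted p = 0.123). Of the 7 linked peaks of Ucp3, 6 had positive and 1 negative log2 fold changes, from -0.01 to 0.85, and only the start peak passed. The 5 that were not shared with Ucp2, a set chosen after its values were seen, were all positive, from 0.11 to 0.85. In 2 of these 5 both mutant libraries lay above both wild-type libraries, beside 25.8% of all peaks. Mutant replicate 1 was the highest library in 4 of the 5.

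Ucp2 lies next to Ucp3, in the same orientation. Its start peak (chromosome 7, 100492453 to 100494577) had 43.6 and 33.5 CPM in the wild type and 50.4 and 43.9 CPM in the mutant. Mutant replicate 2 lay just above wild-type replicate 1, so the groups barely separated, and the log2 fold change of 0.29 (SE 0.16, adjusted p = 0.293, edgeR) did not pass. It ranged from 0.12 with wild-type replicate 2 left out to 0.50 with wild-type replicate 1 left out. None of its 8 linked peaks passed, with log2 fold changes from -0.43 to 0.80. Ucp1 had no linked peak in the table. Adipocyte markers had gene-end peaks (within 1 kb) in 4 of 6 genes, and Adipoq and Lep, the genes of the fat hormones adiponectin and leptin, had none. These 8 peaks summed to 151 and 143 CPM in the wild type and 190 and 152 CPM in the mutant, 1 of them rose, and their part in the Ucp3 result was not tested.

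The remaining members related to the uncoupling proteins are Slc25a14, Slc25a27 and Slc25a30. Their start peaks had log2 fold changes of -0.05, 0.06 and -0.20, none past the threshold. No start was given for Slc25a27, so its peak was taken at a gene end. This peak lay within 1 kb of an end of Cyp39a1, so it cannot be assigned to 1 of the 2 genes. In the uncoupling group as a whole, 1 of 21 peaks rose and none fell, beside 3.05% and 2.45% of all peaks.

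Slc25a4 encodes the adenine nucleotide translocase of heart and muscle, which exchanges matrix ATP for cytosolic ADP. It had 10 linked peaks, and the called one lay 4350 bp beyond the far end of the gene from its start (chromosome 8, 46201662 to 46202818). Values were 13.5 and 13.4 CPM in the wild type and 22.1 and 22.6 CPM in the mutant. Replicates were nearly equal within each genotype, and the groups were well separated. The mean rose from 13.4 ± 0.071 to 22.4 ± 0.32 CPM (SD, n = 2 per genotype), with a log2 fold change of 0.74 (SE 0.18, adjusted p = 0.0233, edgeR). This call had the narrowest replicate spread of the 6 relative to its size.

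The 4 peaks beyond that gene end, a stretch chosen after its values were seen, had log2 fold changes from 0.69 to 0.96. For 1 of the 4 (chromosome 8, 46201070 to 46201253) the nearest gene end was that of Cfap97. In all 4 both mutant libraries lay above both wild-type libraries, beside 25.8% of all peaks, although 3 of them did not pass the threshold. The other 6 linked peaks of Slc25a4 ran from -0.14 to 0.34. The start peak (chromosome 8, 46209825 to 46212096) was strong, at 68.6 and 68.7 CPM in the wild type and 84.4 and 73.1 CPM in the mutant. Its log2 fold change of 0.20 (SE 0.13, adjusted p = 0.409, edgeR) did not pass, though the groups did not overlap.

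Slc25a5 and Slc25a31 encode other adenine nucleotide translocases, and Slc25a3 encodes the phosphate carrier that supplies ATP synthase. The Slc25a5 start peak (chromosome X, 36795884 to 36796764) was far weaker than that of Slc25a4, at 13.7 and 16.7 CPM in the wild type and 14.7 and 12.9 CPM in the mutant, and the groups overlapped. Its log2 fold change was -0.14 (SE 0.20, adjusted p = 0.742, edgeR). The Slc25a3 start peak (chromosome 10, 91122612 to 91124879) had 59.2 and 63.8 CPM in the wild type and 52.3 and 63.6 CPM in the mutant, again with overlap, and a log2 fold change of -0.09 (SE 0.14, adjusted p = 0.775, edgeR). Slc25a31, the translocase of germ cells, had no linked peak. Of the 17 peaks of the ADP/ATP and phosphate group, 1 rose and none fell, beside 3.05% and 2.45% of all peaks.

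**Figure D2:**
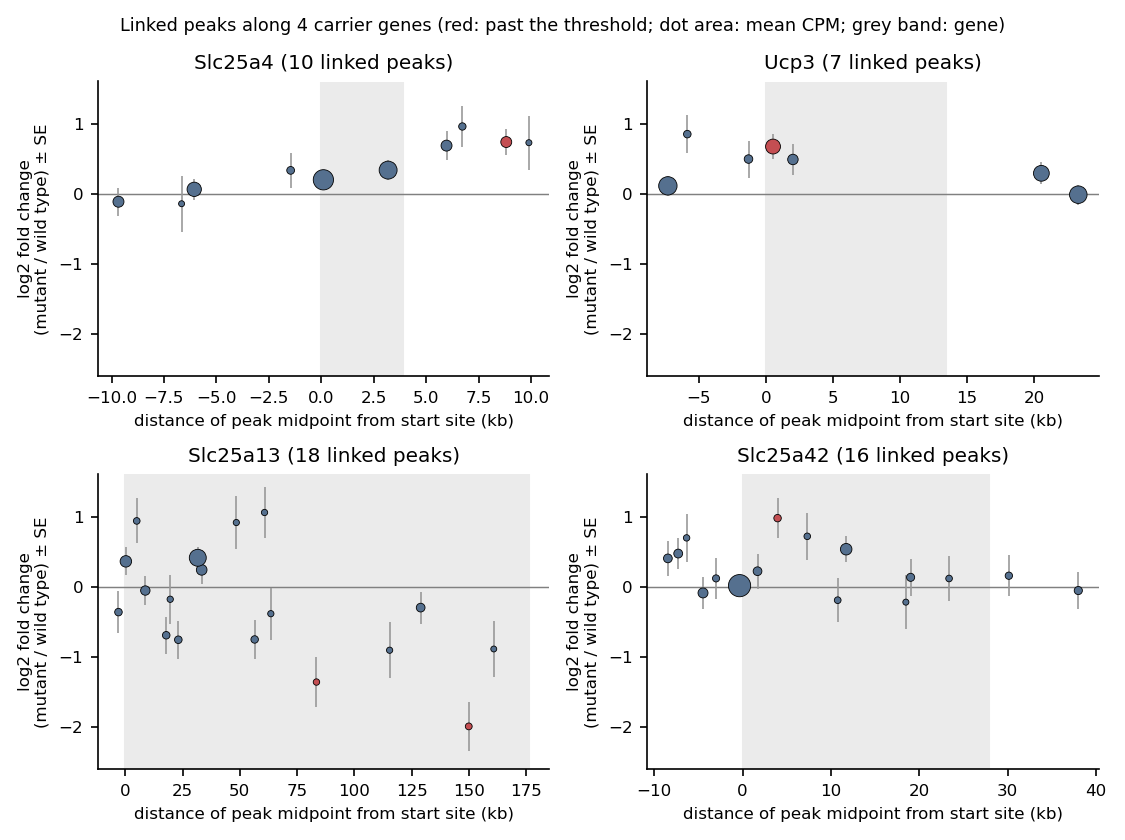
Log2 fold change (mutant over wild type, ± SE) of each linked peak against the distance of its midpoint from the gene's annotated start in kb, for Slc25a4, Ucp3, Slc25a13 and Slc25a42. Dot area follows the mean CPM, red dots passed the threshold and the grey band is the gene. At Slc25a4 the values on the far side of the gene lie between 0.69 and 0.96, and at Slc25a13 the 2 called peaks are weak and lie deep in the gene.

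Slc25a13 encodes citrin, an aspartate/glutamate carrier of the malate-aspartate shuttle that is also known from liver. It had the most linked peaks, 18, spread over a long gene. The peak with the smallest p of all linked peaks (chromosome 6, 6067038 to 6067603) lay within the gene, 25820 bp from its nearer end, which is the end opposite the start. Values were 6.56 and 6.24 CPM in the wild type and 2.19 and 1.01 CPM in the mutant, with no overlap. The mean fell from 6.40 ± 0.23 to 1.6 ± 0.83 CPM (SD, n = 2 per genotype), with a log2 fold change of -1.99 (SE 0.35, adjusted p = 0.0035, edgeR). No other member peak past the threshold stayed called in each of the 4 fits that omitted a library.

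A second Slc25a13 peak (chromosome 6, 6133583 to 6133930), in the middle of the gene, had 4.41 and 4.03 CPM in the wild type and 1.82 and 1.45 CPM in the mutant. Its log2 fold change was -1.36 (SE 0.35, adjusted p = 0.0285, edgeR). The call was lost with DESeq2 (adjusted p = 0.0869) and, in edgeR, with mutant replicate 2 left out (adjusted p = 0.0535). Values at the locus did not all go the same way. Of the 18 peaks, 12 had negative and 6 positive log2 fold changes, and at an unadjusted p of 0.05 there were 7 lower and 4 higher, beside 10.4% and 11.4% of all peaks.

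The start peak of Slc25a13 (chromosome 6, 6216233 to 6217563) had 18.3 and 17.2 CPM in the wild type and 27.6 and 18.1 CPM in the mutant. Only mutant replicate 1 stood above the rest, and mutant replicate 2 lay between the wild-type libraries. The log2 fold change of 0.36 (SE 0.20, adjusted p = 0.302, edgeR) did not pass. It was 0.03 with mutant replicate 1 left out, and 0.63 with mutant replicate 2 left out, where it passed (adjusted p = 0.0169, edgeR).

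Slc25a12 encodes aralar, the aspartate/glutamate carrier of heart, muscle and brain. Its start peak (chromosome 2, 71366752 to 71368178) had 35.8 and 36.4 CPM in the wild type and 38.9 and 32.1 CPM in the mutant, with overlap and a log2 fold change of -0.02 (SE 0.15, adjusted p = 0.951, edgeR). None of its 7 peaks passed. Slc25a22, a glutamate carrier, had 7 peaks and none passed, while Slc25a18, its paralog, had no linked peak. Of the 32 peaks of this group, none rose and 2 fell, both at Slc25a13, beside 3.05% higher and 2.45% lower among all peaks.

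Among carriers of nucleotides and cofactors, Slc25a42 and Slc25a32 had 1 called peak each, in opposite directions. Slc25a42 encodes a carrier of coenzyme A. The higher peak lay within the gene, 3711 bp from its start (chromosome 8, 70208080 to 70208570), with 4.02 and 3.66 CPM in the wild type and 9.06 and 6.06 CPM in the mutant. The mean rose from 3.84 ± 0.25 to 7.56 ± 2.13 CPM (SD, n = 2 per genotype), with a log2 fold change of 0.98 (SE 0.28, adjusted p = 0.0477, edgeR). This was the call closest to the threshold, and it was lost under 8 of 12 alternatives, including total-count scaling (adjusted p = 0.0545) and DESeq2 (0.118).

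The start peak of Slc25a42 (chromosome 8, 70211744 to 70213512) was among the strongest of the family, at 90.9 and 87.5 CPM in the wild type. The mutant libraries lay on both sides of that, at 78.1 and 102 CPM, and the log2 fold change was 0.02 (SE 0.14, adjusted p = 0.967, edgeR). Of its 16 linked peaks, 12 had positive and 4 negative log2 fold changes.

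Slc25a32 encodes the folate and flavin carrier. Its lower peak lay within the gene, 4241 bp from the nearer end (chromosome 15, 39108140 to 39108479), with 5.49 and 3.51 CPM in the wild type and 2.01 and 1.58 CPM in the mutant. The mean fell from 4.50 ± 1.40 to 1.79 ± 0.30 CPM (SD, n = 2 per genotype), with a log2 fold change of -1.32 (SE 0.36, adjusted p = 0.0363, edgeR), which was -0.96 without wild-type replicate 1. Neither DESeq2 (adjusted p = 0.105) nor limma voom (0.0613) called it, nor did edgeR when mutant replicate 2 was omitted (0.0566). No start was given for Slc25a32, and the strongest peak at its gene ends, shared with Dcaf13, had a log2 fold change of -0.07.

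Slc25a33 encodes a pyrimidine nucleotide carrier. Its start peak (chromosome 4, 149773471 to 149774554) had 22.6 and 24.6 CPM in the wild type and 30.05 and 21.01 CPM in the mutant, with overlap and a log2 fold change of 0.11 (SE 0.18, adjusted p = 0.775, edgeR). None of its 11 peaks passed. Over all 11 genes of the nucleotide and cofactor group, 1 of 62 peaks rose, 1 fell and 60 did not pass. Among all peaks 3.05% rose and 2.45% fell. The median log2 fold change of the group was 0.05.

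The 5 called peaks other than the strongest one at Slc25a13 were each lost when either wild-type replicate was left out. In such a fit a lone library stands for a genotype and is assumed to vary like the other pair. Why the calls were lost was not tested. The log2 fold changes of these 5 peaks kept their direction in the 2 fits. That is no separate evidence, because the CPM of the genotypes did not overlap at these peaks. Leaving out a library could therefore hardly reverse the direction.

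Slc25a20 encodes the carnitine-acylcarnitine translocase, through which long-chain fatty acids enter the matrix for oxidation. Its start peak (chromosome 9, 108661849 to 108663093) had 21.2 and 18.9 CPM in the wild type and 30.4 and 19.9 CPM in the mutant. As at Slc25a13, mutant replicate 1 alone stood above the other libraries. The log2 fold change of 0.33 (SE 0.20, adjusted p = 0.346, edgeR) did not pass, was -0.01 without mutant replicate 1, and was 0.60 without mutant replicate 2, where it passed (adjusted p = 0.018). The other 5 peaks did not pass, and the one with the smallest p (chromosome 9, 108687787 to 108688156, beyond the far end of the gene) had a log2 fold change of -0.82 (SE 0.39, adjusted p = 0.226, edgeR).

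Carriers of citrate, dicarboxylates and oxoglutarate link the citric acid cycle to the cytosol. None of the 14 peaks of Slc25a1, Slc25a10, Slc25a11 and Slc25a21 passed. At Slc25a1, the citrate carrier, the start peak (chromosome 16, 17927174 to 17928677) had 12.5 and 11.1 CPM in the wild type and 15.2 in both mutant libraries. The groups did not overlap, and the log2 fold change was 0.37 (SE 0.20, adjusted p = 0.303, edgeR).

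Slc25a11 encodes the oxoglutarate carrier of the malate-aspartate shuttle. Its start peak (chromosome 11, 70645111 to 70648333), shared with Rnf167, had 82.8 and 84.4 CPM in the wild type and 96.3 and 80.7 CPM in the mutant, with a log2 fold change of 0.08 (SE 0.13, adjusted p = 0.775, edgeR). All 6 of its linked peaks had positive log2 fold changes, from 0.08 to 0.49. In 2 of them both mutant libraries lay above both wild-type libraries, beside 25.8% of all peaks. For 5 of the 6 the nearest gene end was that of another gene (Rnf167, Pfn1 or Eno3). The smallest p of the group was at Slc25a10, the dicarboxylate carrier, where a weak peak within the gene (chromosome 11, 120494100 to 120494648) had a log2 fold change of 0.81 (SE 0.35, adjusted p = 0.173, edgeR).

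Slc25a28 and Slc25a37 encode the mitoferrins, which carry iron for heme and iron-sulfur clusters. Slc25a37, the form of red-cell precursors, had no linked peak. The Slc25a28 start peak (chromosome 19, 43674146 to 43676221) had 91.2 and 86.2 CPM in the wild type and 92.0 and 95.0 CPM in the mutant, a log2 fold change of 0.08 (SE 0.13, adjusted p = 0.779, edgeR). The 6 other peaks at Slc25a28 were weak, at mean CPM from 1.66 to 5.04. In 4 of the 6, or 66.7%, both mutant libraries lay below both wild-type libraries, and none of the 6 passed. The share over all peaks under 5 CPM was 29.1%, and the range of the 6 peaks runs just past that limit. The one with the smallest p (chromosome 19, 43669383 to 43669761) had 4.13 and 4.28 CPM in the wild type and 2.31 and 1.89 CPM in the mutant, a log2 fold change of -0.998 (SE 0.34, adjusted p = 0.0864, edgeR).

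The calcium-regulated ATP-Mg/phosphate carriers, Slc25a23, Slc25a24, Slc25a25 and Slc25a41, had 17 peaks and none passed. At Slc25a25 a peak within the gene (chromosome 2, 32428228 to 32429145) had 6.68 and 5.16 CPM in the wild type and 7.06 and 15.1 CPM in the mutant. Mutant replicate 2 stood apart from the other libraries, in contrast to the start peaks led by mutant replicate 1, and the log2 fold change was 0.90 (SE 0.30, adjusted p = 0.0792, edgeR). It was 0.26 when mutant replicate 2 was omitted. Omitting mutant replicate 1 gave 1.35, which passed (adjusted p = 6.77e-05, edgeR). The strongest peak counted as a start peak had 151 and 143 CPM in the wild type and 119 and 171 CPM in the mutant. It was listed for Slc25a41, whose start was not given, so it may lie at either end of that gene. It lies 120 bp outside the gene and within 1 kb of an end of Khsrp, the gene with the nearest end.

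None of the 18 peaks at the other amino acid carriers passed, which included the ornithine carrier genes Slc25a15 and Slc25a2 and the glycine carrier gene Slc25a38. At Slc25a44, a carrier of branched-chain amino acids, a peak within the gene (chromosome 3, 88411736 to 88412208) had 7.58 and 7.90 CPM in the wild type and 4.32 and 4.23 CPM in the mutant. The replicates were close, and the log2 fold change was -0.86 (SE 0.26, adjusted p = 0.06, edgeR). Slc25a46, a carrier-like protein of the outer membrane with a part in mitochondrial shape, had 1 peak, near an end of the gene (chromosome 18, 31609238 to 31610428), with a log2 fold change of 0.00 (SE 0.15, adjusted p = 0.993, edgeR).

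The 7 members placed in no substrate group (Slc25a34, Slc25a35, Slc25a43, Slc25a47, Slc25a48, Slc25a53 and Slc25a54) had 23 peaks and none passed. Slc25a35 came closest, at a weak peak 923 bp beyond a gene end (chromosome 11, 68966935 to 68967173). It had 2.26 and 2.63 CPM in the wild type and 1.16 and 0.57 CPM in the mutant, a log2 fold change of -1.49 (SE 0.44, adjusted p = 0.0507, edgeR). In edgeR it passed with RLE size factors (adjusted p = 0.0497), with total counts (0.0447), with the replicate block (0.0137) and without mutant replicate 1 (0.00793). It did not pass with limma voom (0.0769) or DESeq2 (0.21), and with cyclic loess offsets the log2 fold change was -0.99 (adjusted p = 0.196, edgeR).

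**Figure D3:**
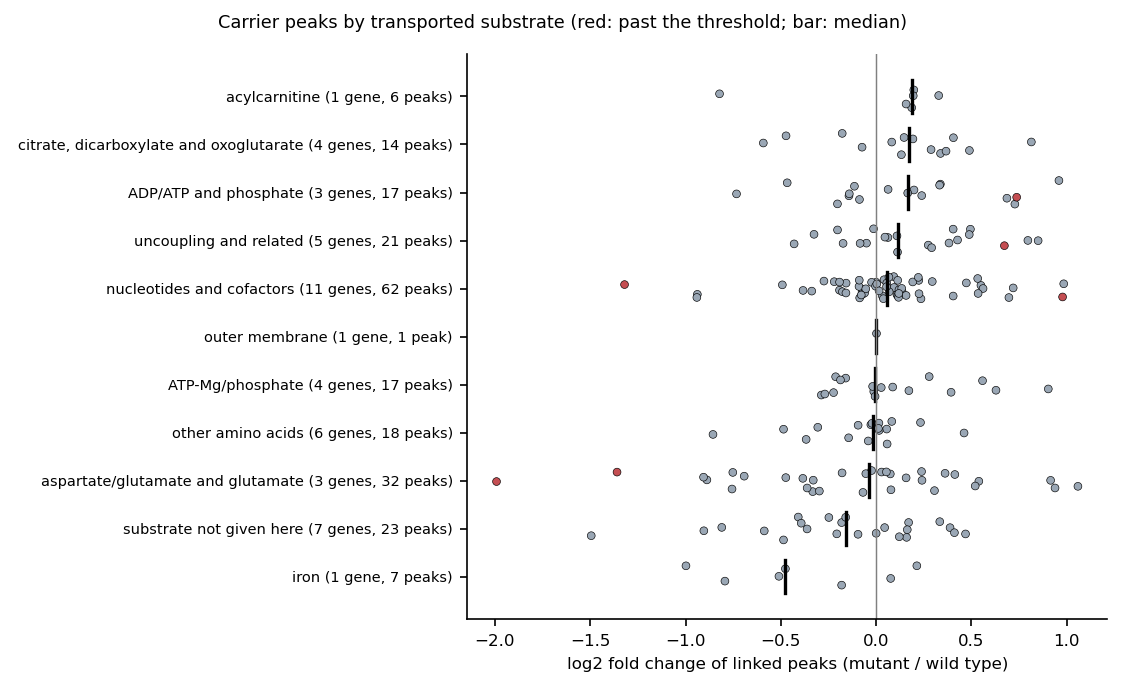
Log2 fold change (mutant over wild type, horizontal axis) of every linked peak, by the substrate of the carrier, with medians as black bars and peaks past the threshold in red. The 6 called peaks fall in 4 groups, and the group medians lie between -0.48 (iron, 7 peaks) and 0.19 (acylcarnitine, 6 peaks).

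Accessibility at the starts of carrier genes varied widely between genes and little between genotypes. A peak within 1 kb of the start, or of either end where the start was not given (11 of the 50 members), was found for 41 members. The strongest such peak had a mean over all libraries from 6.09 CPM at Slc25a47 to 146 CPM at Slc25a41, a gene whose start was not given. Of these 41 peaks, 1 rose and none fell, beside 1.55% called among the 15262 peaks within 1 kb of any protein-coding gene start. Their median size of log2 fold change, sign ignored, was 0.08, against 0.15 over all start peaks and 0.29 over all peaks. These sets are not alike, since the 41 are the strongest peak of each gene, with a median of 35.8 CPM against 19.6 over all start peaks. All 54 linked peaks within 1 kb of a start had a median size of 0.095. Among peaks of at least 20 CPM, the median size was 0.09 for the 58 linked ones and 0.14 for all 12508.

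Mutant replicate 1 was the highest library at 20 of the 41 start peaks and mutant replicate 2 the lowest at 16. The same order was seen over all 15262 start peaks, where mutant replicate 1 was highest in 6083 and mutant replicate 2 lowest in 5218. At 7 of the 41 another gene's end lay within 1 kb. The 163 linked peaks farther than 1 kb from a start had 2 higher and 3 lower calls, beside 3.05% and 2.45% of all peaks. Their median size was 0.29. Slc25a2, Slc25a21, Slc25a43, Slc25a48 and Slc25a54 had linked peaks but none at a start, with log2 fold changes from -0.36 to 0.47.

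**Figure D4:**
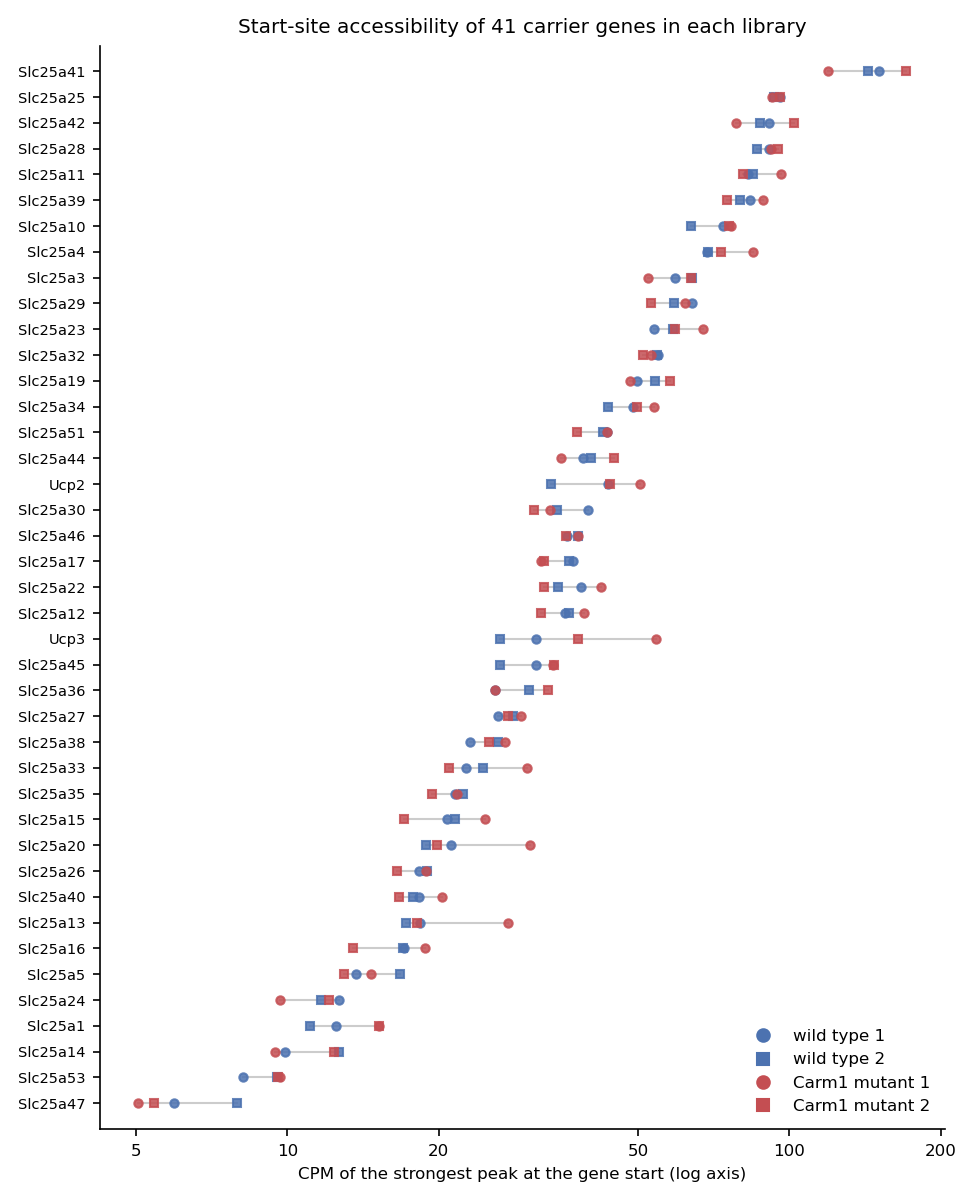
CPM of the strongest peak at the start of 41 carrier genes, or at either end where no start was given (log axis). Each library has 1 point, with blue for wild type, red for mutant, circles for replicate 1 and squares for replicate 2. Genes are ordered by the wild-type mean, and Ucp3 is the only one whose mutant values passed the test.

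Other genes of mitochondrial transport, from a list of 36 whose symbols fall outside the rule for members, gave 209 linked peaks. Of these 2 rose and 2 fell, a called share of 1.91% against 5.5% of all peaks, with a median log2 fold change of 0.11. Both mutant libraries lay above both wild-type libraries in 74 of the 209 peaks, or 35.4%, against 25.8% of all peaks. They lay below both in 26, or 12.4%, against 25.7% of all peaks. The cause of this lean toward the mutant was not tested. The 2 called peaks that rose lay near Vdac3, an outer membrane channel gene, with a log2 fold change of 2.74, and at Tomm20, a receptor of protein import, with 1.41. Those that fell lay at Sfxn5, a sideroflexin gene, with -1.004, and at Cpt1a, whose enzyme makes acylcarnitine, with -0.99. Of the 34 peaks of the carrier import machinery 1 rose and none fell, beside 3.05% and 2.45% of all peaks. The 3 peaks of Mpc1 and Mpc2, the pyruvate carrier genes, did not pass.

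Hearts hold many cell types, and in bulk tissue a change in the share of a cell type cannot be told apart from a change within its cells. All 10 cardiomyocyte markers had gene-end peaks, and these 23 peaks, none past the threshold, summed to 1116 and 1045 CPM in the wild type and 1296 and 1139 CPM in the mutant. The 9 endothelial peaks, at 7 of 8 markers, summed to 205 and 152 CPM in the wild type and 147 and 136 CPM in the mutant, and 1 of them fell. Mutant replicate 1 was the highest library in the cardiomyocyte sum, and also in the adipocyte, erythroid, leukocyte, and Schwann and neuronal sums. It was likewise highest at the start peaks of Ucp3, Slc25a13 and Slc25a20, and at 6083 of the 15262 peaks within 1 kb of any protein-coding gene start. The part of cell makeup in the carrier results was not tested. Of the 6 erythroid markers 1 had such a peak, and Gata1, Alas2, Epb42, Hba-a1 and Hbb-bs had none. Its sum was 16.97 and 12.3 CPM in the wild type and 19.5 and 18.99 CPM in the mutant. Schwann and neuronal markers had one in 3 of 5 genes (not Sox10 or Th), summing to 74.9 and 70.1 CPM in the wild type and 95.01 and 86.8 CPM in the mutant, and leukocyte markers in 2 of 6 (not Cd3e, Csf1r, Itgam or Ptprc), with 119 and 115 against 127 in both mutant libraries. In these 3 sums the groups did not overlap, with the mutant higher, and none of their 9 peaks passed. Fibroblast markers (7 of 7 genes) summed to 85.8 and 95.4 against 88.9 and 106 CPM, and smooth muscle and pericyte markers (5 of 5) to 64.1 and 63.1 against 65.9 and 73.95 CPM. The cardiomyocyte, adipocyte and smooth muscle sums were likewise higher in both mutant libraries than in either wild-type library, and the endothelial sum was lower in both. Start peaks of all genes also leaned to the mutant. Among the 15262, both mutant libraries lay above both wild-type libraries in 3505 and below both in 2553. The marker sums were not compared with sums over other genes, so their separation is not shown to be particular to these markers. Libraries held 15945420 to 19091969 counts in peaks, so 1 CPM stood for 15.8 to 19.4 counts, and the lowest count at a linked peak was 9.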

How the data were processed

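ATAC-seq read counts in peaks were analysed for 2 wild-type and 2 Carm1 mutant heart samples. The deposited matrix gives whole-number read counts for each peak, not normalized, and each column name matched 1 sample title. The submitters' processing notes name FastQC (a read quality tool), Bowtie2 (an aligner) and the mm10 build, without their settings. How peaks were called, reads filtered, duplicates treated or cut sites shifted is not given in the sources used here. Peak widths and counts depend on those steps. Coordinates are printed as in the table.

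All 87948 peaks were fitted in R 4.3.3 by the quasi-likelihood method of edgeR 4.0.16 (TMM, filterByExpr, genotype as the only term), and p-values were Benjamini-Hochberg adjusted over all of them, with a threshold of 0.05. The filter removed 0 peaks. The common biological coefficient of variation was 0.166. An exact permutation test of 2 against 2 cannot go below p = 0.333. Peaks were linked with a RefSeq gene table and starts from a RefSeq promoter table, both GRCm38.p6, and neither places a peak in an exon, intron or UTR. Named peaks were all called ones, the strongest start peak of 15 listed genes (13 had one) and the peak with the smallest p in each of 11 substrate groups. The start peaks of Slc25a14, Slc25a27, Slc25a30, Slc25a32 and Slc25a41 fall outside this rule and were chosen after their values were seen; other peaks are given by range. Members, lists and tests were chosen with earlier results of these data known. The fitting script was first tested on simulated data. Alternatives were other scalings and filters, DESeq2 1.42.0, limma voom (limma 3.58.1), a looser threshold, each library left out, a replicate block and other linking windows.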

Additional observations from a re-analysis of the deposited data

How the results depend on the processing

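Among the 217 linked peaks, 3 higher and 3 lower calls became 2 and 1 with DESeq2, 2 and 2 with limma voom, 2 and 4 with total counts, 11 and 7 at an adjusted p under 0.1, and 12 and 8 with the replicate number as a block. With 1 library left out there were 0 to 13 higher and 1 to 7 lower calls. Linking by the gene alone gave 2 and 3 calls, by 1 kb of a gene end 1 and 0, and by 50 kb 9 and 7, over 127, 63 and 492 peaks. The median log2 fold change was 0.0053 to 0.049 with 1 library left out, and with total counts it was 0.01. Over all peaks, 2683 higher and 2156 lower calls became 1365 and 1008 with DESeq2, 5230 and 4494 with the replicate block, and 4824 and 4127 at the looser threshold, and ran from 642 to 4307 higher and from 364 to 4132 lower with 1 library left out. The replicate numbers were not taken as pairs, since the labels tie them to no shared animal or batch and only 2 pairs exist (correlation of deviations 0.11). The cause of these differences was not tested. The start peak of Slc25a42, at 0.02, had -0.019 with total counts and -0.0054 with cyclic loess offsets, and -0.19 to 0.20 with 1 library left out. Some other named peaks changed sign, and only when 1 library was left out. Among values near 0, the ranges were -0.051 to 0.20 (Slc25a11), -0.17 to 0.11 (Slc25a12), -0.24 to 0.047 (Slc25a3) and -0.17 to 0.35 (Slc25a33). They were -0.043 to 0.038 for Slc25a46 and -0.27 to 0.016 for Slc25a5. The start peak of Slc25a20, at 0.33, ranged from -0.010 to 0.60. No called peak changed direction. In the fits with 1 library left out this could hardly happen, because the CPM of the genotypes did not overlap at the called peaks. Calls at weak peaks rest on few counts.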
